A study of Homo sapiens with 29 samples.

Results

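The cyclin genes CCNA2, CCNB1 and CCND1 and the proliferation marker gene MKI67 were followed in HepG2 cells, a long-established human liver tumour line, with and without CCL. They were selected by gene symbol in the array's probe table, which gave 4 genes of 14884 with a name, each by 1 probe set of 16098 named ones. All 4 passed the filter on low values (log2 above 5 on at least 2 arrays) and were tested among 6529 genes. CCL is the labels' abbreviation for the herb Cratoxylum cochinchinense Lour. CCL-treated cells were harvested at 6, 12 and 18 h (3 arrays each) and at 24 and 48 h (2 arrays each). Untreated cells were harvested at 0 h (2 arrays), 6 h (3), 12 h (3), 18 h (2), 24 h (3) and 48 h (3). The labels name no dose and no vehicle, so an effect of CCL cannot be told apart from one of a solvent or of handling. Arrays carry a set number from 1 to 3 whose meaning is not stated, and nothing says that they came from separate cultures. P-values therefore measure only the spread between these 29 arrays, whose number limits the precision of every value.

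Cyclins are the regulatory subunits of cyclin-dependent kinases. Cyclin D1, made from CCND1, is the G1 cyclin: with CDK4 or CDK6 it phosphorylates the retinoblastoma protein, and its transcription follows growth factor signals. Cyclin A2 (CCNA2) acts with CDK2 in S phase and with CDK1 towards mitosis, and cyclin B1 (CCNB1) with CDK1 drives mitotic entry. Ki-67, the product of MKI67, coats mitotic chromosomes and is used in pathology as a mark of cycling cells. Transcripts of CCNA2, CCNB1 and MKI67 accumulate late in the cycle, under repression by DREAM-type complexes in resting cells and activation by FOXM1 and MYBL2 in cycling ones. In a bulk sample, fewer cycling cells and less transcript per cycling cell cannot be told apart.

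The promoters of the 3 late genes are shown because such late transcription is known to be read from short words there, the CHR words and the CCAAT box. No promoter sequence of CCND1 was available, so whether it holds these words was not looked at. Each sequence is the 150 bases before the RefSeq start (GRCh38.p14), 5′ to 3′ on the gene's strand. Capitals mark the CHR words (CTTGAA in CCNA2, TTTGAA in MKI67 and TTTAAA in CCNB1) and CCAAT, or ATTGG where it runs on the other strand. They also mark TGACGTCA, the cAMP response word, in CCNA2.
CCNA2, chr4:121823884-121824033, minus strand: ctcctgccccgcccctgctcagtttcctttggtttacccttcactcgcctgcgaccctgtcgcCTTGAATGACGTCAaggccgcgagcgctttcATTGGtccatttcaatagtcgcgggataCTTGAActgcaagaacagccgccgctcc
CCNB1, chr5:69167000-69167149, plus strand: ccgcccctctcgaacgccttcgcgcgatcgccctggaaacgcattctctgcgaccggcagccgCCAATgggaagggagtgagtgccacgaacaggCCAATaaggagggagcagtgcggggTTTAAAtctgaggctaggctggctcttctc
MKI67, chr10:128126424-128126573, minus strand: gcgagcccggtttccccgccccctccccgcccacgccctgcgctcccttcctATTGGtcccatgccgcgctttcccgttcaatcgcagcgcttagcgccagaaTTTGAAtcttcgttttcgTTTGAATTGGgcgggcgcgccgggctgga

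All 3 windows held both a CHR word and a CCAAT box. Of 35116 RefSeq promoter windows of the same length, 4.31% held both, searched on both strands. Since the words were taken from what is known of late genes, this share is background and enrichment was not tested. CTTGAA stood in 5.31% of those windows, TTTGAA in 7.33%, TTTAAA in 6.24% and CCAAT in 23.5%. In the CCNA2 window CTTGAA lay at 28 to 23 and at 87 to 82 bases before the start, and ATTGG at 56 to 52. The CTTGAA at 87 to 82 lay directly beside TGACGTCA at 81 to 74, a word found in 1.4% of windows. In the MKI67 window TTTGAA lay at 47 to 42 and 29 to 24, and ATTGG at 98 to 94 and 24 to 20. The TTTGAA at 29 to 24 shares 1 base with the ATTGG at 24 to 20. In the CCNB1 window TTTAAA lay at 30 to 25 and the CCAAT boxes at 87 to 83 and 55 to 51. These are matches of letters, not shown to be sites of any factor in these cells.

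The probe sets lie in genes that RefSeq places (GRCh38.p14) at chr4:121816444-121823883 for CCNA2, chr5:69167150-69178245 for CCNB1, chr11:69641156-69654474 for CCND1 and chr10:128096659-128126423 for MKI67. Values are the deposited log2 levels, on which a difference of 1 is a doubling. The median of an array over all probe sets ran from 2.29 to 3.39. The 12 h arrays of both arms lay together at 2.51 to 2.54, and 6 arrays stood apart from the rest. These were CCL set 1 at 6, 24 and 48 h, CCL set 3 at 18 h, and untreated set 1 at 18 and 24 h. Values without them, or after quantile normalization, which makes all arrays' distributions equal, are given where they bear on a result. All 9 hepatocyte markers of 12 that had a named probe set had medians above 5 (7.03 to 11.94, ALB highest). The endothelial PECAM1, VWF and KDR, the fibroblast DCN and the leukocyte CD14 had medians of 1.94 to 2.94, while LYZ of the leukocyte list had a median of 10.66. The other markers of those lists were not analysed here.

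Averaged over the 5 times, the 3 late genes were lower with CCL than in untreated cells of the same time. CCNA2 stood at 69.1%, CCNB1 at 61.7% and MKI67 at 62.2% of the time-matched untreated level. CCND1 stood at 94.0% and did not pass the test. The log2 difference was -0.53 ± 0.10 for CCNA2 (SE, limma over 29 arrays, adjusted p = 0.000503). It was -0.70 ± 0.14 for CCNB1 (limma adjusted p = 0.000621) and -0.68 ± 0.19 for MKI67 (limma adjusted p = 0.00877). For CCND1 it was -0.09 ± 0.10 (limma adjusted p = 0.546), with a 95% interval of -0.29 to 0.11. After quantile normalization it was -0.14 ± 0.07 (limma adjusted p = 0.112), also not called, and -0.22 to -0.07 at the 5 single times. In the same comparison 11% of the 6529 genes were called lower and 13.6% higher, where called means a limma adjusted p under 0.05 over all genes. After quantile normalization the balance turned, with 18.9% called lower and 16.5% higher. Of all genes, 5.59% had a lower difference than CCNA2, 2.65% than CCNB1, 2.74% than MKI67 and 35.0% than CCND1. Without the 6 arrays that stood apart the differences were -0.35 for CCNA2 (limma adjusted p = 0.00349), -0.43 for CCNB1 (0.0122) and -0.43 for MKI67 (0.00193). Each was still called, with a difference smaller by more than 1.5 times. The difference of CCND1 was then -0.09 (limma adjusted p = 0.427).

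**Figure D1:**
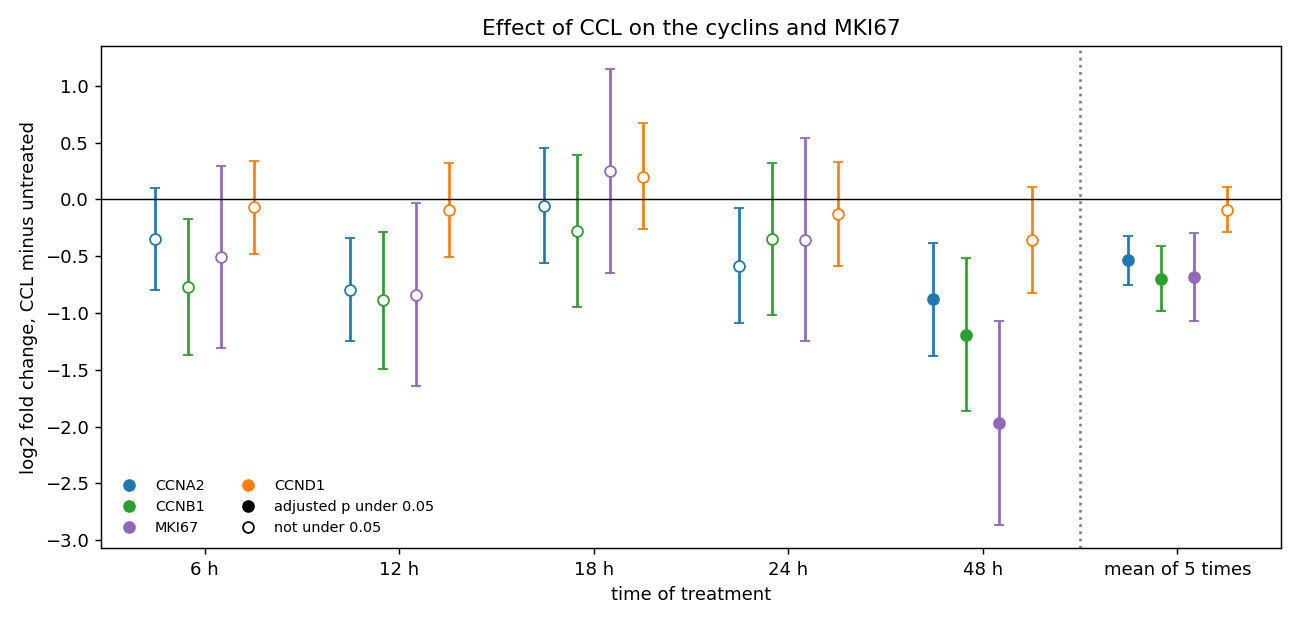
Log2 difference of CCL minus untreated cells for CCNA2, CCNB1, MKI67 and CCND1 at 5 times and for their mean, with bars for the 95% interval of the limma fit over 29 arrays and filled points for an adjusted p under 0.05. The means of CCNA2 (-0.53), CCNB1 (-0.70) and MKI67 (-0.68) lie below 0, that of CCND1 is -0.09, and the wide bar of MKI67 at 48 h (difference -1.97) belongs to a group of 2 CCL arrays that differ widely.

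CCNA2, the S phase and mitotic cyclin, had log2 levels at 6 h of 8.43, 8.34 and 8.50 in CCL-treated cells, against 8.69, 8.93 and 8.69 in untreated cells (sets 1, 2 and 3 in each case). At 12 h it had 8.16, 8.47 and 7.94 with CCL, against 9.03, 8.92 and 9.01 without. At both times every CCL array lay below every untreated one. At 18 h the levels were 8.48, 8.66 and 8.55 with CCL, against 8.60 and 8.64 (sets 1 and 3) without, and the arms overlapped. At 24 h they were 7.68 and 8.70 with CCL (sets 1 and 2), against 8.75, 8.86 and 8.72 without. At 48 h they were 7.37 and 8.21 with CCL (sets 1 and 2), against 8.69, 8.71 and 8.62 without. The arms stayed apart at 24 and 48 h, but CCL set 1 lay far below CCL set 2 at both. Untreated cells at 0 h had 8.50 and 8.39 (sets 1 and 3).

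CCNB1, the mitotic entry cyclin, had log2 levels at 6 h of 6.44, 6.61 and 6.67 in CCL-treated cells, against 7.09, 7.56 and 7.39 in untreated cells. At 12 h it had 6.58, 6.96 and 6.42 with CCL, against 7.57, 7.76 and 7.31 without. As for CCNA2, the arms did not overlap at these times. At 18 h CCL-treated cells had 6.79, 7.42 and 7.23, against 7.48 and 7.38 in untreated cells. At 24 h they had 6.45 and 7.55, against 7.24, 7.28 and 7.51 in untreated cells. The arms overlapped at both, since CCL set 2 reached the untreated range at 18 h and passed it at 24 h. At 48 h CCL-treated cells had 5.34 and 6.81, against 7.28, 7.45 and 7.05 in untreated cells, with no overlap. The 0 h cells had 6.60 and 7.12, so the first of these lay at the level of the CCL arrays of 6 h.

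MKI67, the gene of Ki-67, had log2 levels at 6 h of 8.66, 9.14 and 8.58 in CCL-treated cells, against 9.15, 9.37 and 9.39 in untreated cells. At 12 h it had 8.30, 8.40 and 8.60 with CCL, against 9.19, 9.42 and 9.20 without. The arms did not overlap, narrowly so at 6 h, where CCL set 2 and untreated set 1 were nearly level. At 18 h the levels were 8.96, 8.87 and 8.85 with CCL, against 8.30 and 9.00 without, and at 24 h 8.06 and 8.79 with CCL, against 8.30, 8.97 and 9.06 without. Both times overlapped, with untreated set 1, which stood apart in its array median, the lowest untreated value at each. At 48 h CCL-treated cells had 5.88 and 8.68, against 9.40, 9.15 and 9.20 in untreated cells. The value of 5.88, from CCL set 1, was the lowest of MKI67 on any of the 29 arrays, and the 2 CCL arrays had an SD of 1.98. The 0 h cells had 8.92 and 9.24.

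CCND1, the G1 cyclin, had log2 levels at 6 h of 8.29, 8.29 and 8.38 in CCL-treated cells, against 8.59, 8.08 and 8.51 in untreated cells. At 12 h it had 8.03, 7.77 and 7.78 with CCL, against 7.97, 7.90 and 7.98 without. The CCL arrays lay inside the untreated range at 6 h and to both sides of it at 12 h. At 18 h the levels were 8.29, 8.10 and 8.38 with CCL, against 7.83 and 8.28 without, and at 24 h 7.65 and 8.27 with CCL, against 7.70, 8.19 and 8.38 without. The arms overlapped again. At 48 h CCL-treated cells had 7.82 and 8.07, against 8.34, 8.23 and 8.33 in untreated cells. This was the only time at which both arms of CCND1 were apart, and 29.5% of all genes had every CCL array below every untreated one at 48 h. The 0 h cells had 8.32 and 8.29.

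**Figure D2:**
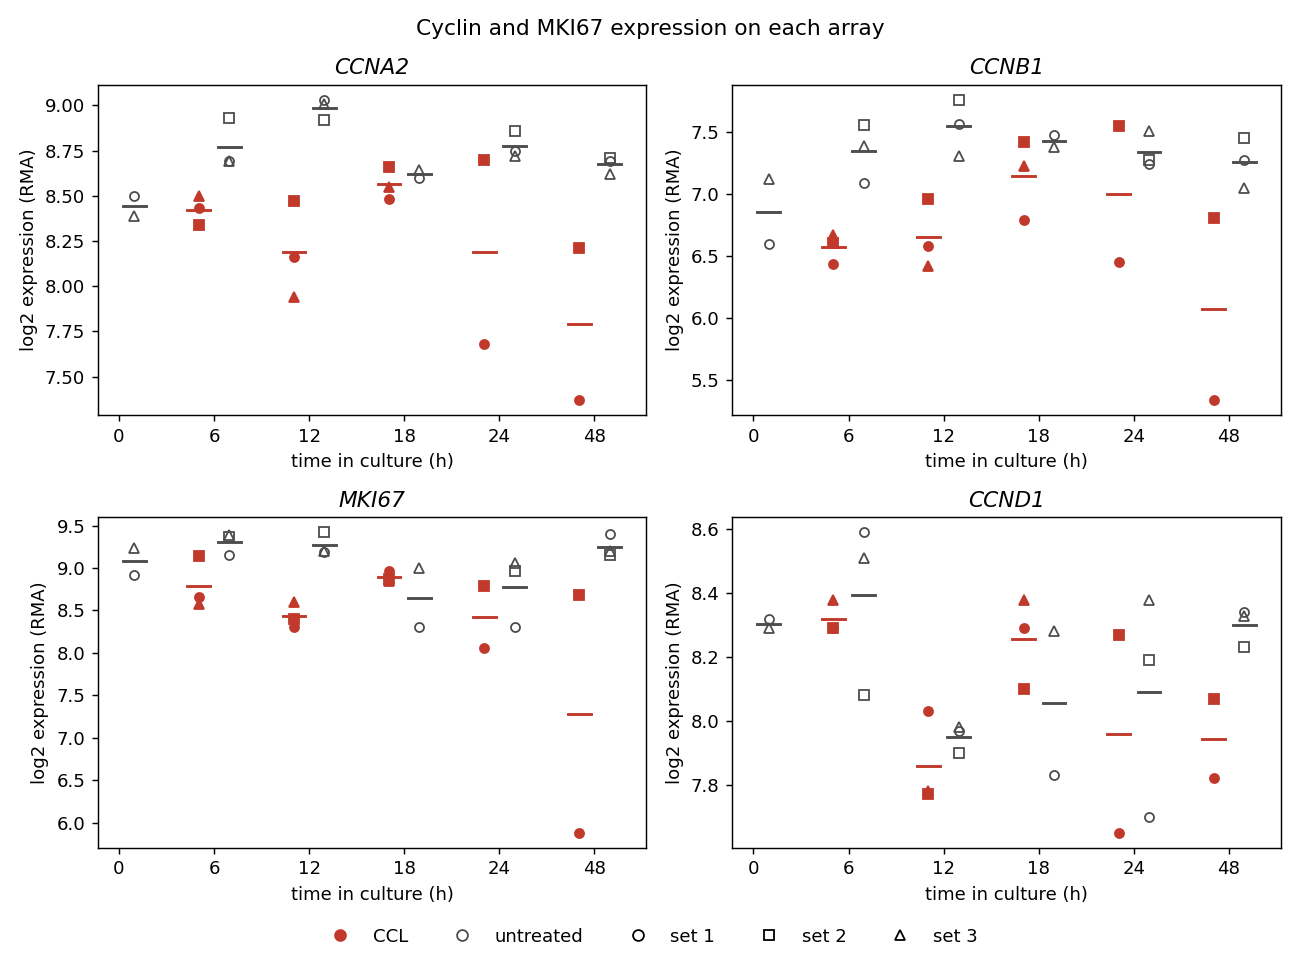
Deposited log2 level of CCNA2, CCNB1, MKI67 and CCND1 on each of the 29 arrays by time in hours, CCL-treated in filled symbols left of untreated in open ones, with the symbol shape giving the set and a line at each group's mean; times are evenly spaced and each gene has its own scale. At 12 h CCL-treated cells had 8.16, 8.47 and 7.94 for CCNA2, below 9.03, 8.92 and 9.01 in untreated cells, while the arms of CCND1 overlapped. The MKI67 value of 5.88 at 48 h stands alone.

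The share of genes whose arms did not overlap in the downward direction was 13.8% at 6 h, 21.4% at 12 h, 2.56% at 18 h and 5.39% at 24 h. CCNA2, CCNB1 and MKI67 belonged to it at 6 and 12 h, none of the 4 genes at 18 h, and CCNA2 alone of the 4 at 24 h.

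At single times the test across all genes called the late genes at 48 h. MKI67 differed there by -1.97 ± 0.44 (limma adjusted p = 0.0116), CCNB1 by -1.19 ± 0.33 (limma adjusted p = 0.033) and CCNA2 by -0.88 ± 0.24 (limma adjusted p = 0.0341), against 5.22% of genes called lower. CCND1 differed by -0.36 ± 0.23 (limma adjusted p = 0.323). The 3 calls rested on CCL set 1. Without it the differences were -0.568 for MKI67, -0.453 for CCNB1 and -0.46 for CCNA2, each with a limma adjusted p of 1. Fitted with the 48 h arrays alone, the differences were the same but the limma adjusted p was 0.299 for each, in a fit that called 0 of the 6529 genes (1087 had an unadjusted p under 0.05). The calls of CCNA2 and CCNB1 ended as well when any untreated 48 h array was left out (limma adjusted p = 0.0592 to 0.111), with differences of -0.907 to -0.862 for CCNA2 and -1.294 to -1.096 for CCNB1.

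At 12 h, where array medians were alike in both arms, CCNA2 differed by -0.80 ± 0.22 (limma adjusted p = 0.0756). CCNB1 differed by -0.89 ± 0.29 (0.165) and MKI67 by -0.84 ± 0.39 (0.407), so none was called, beside 0.199% of genes called lower. Fitted with the 12 h arrays alone, all 3 were called lower, beside 6.19% of all genes, with limma adjusted p-values of 0.0143 for CCNA2, 0.0162 for CCNB1 and 0.00727 for MKI67. CCND1 differed by -0.09 (limma adjusted p = 0.946). At 6 h the differences were -0.35 ± 0.22 for CCNA2, -0.77 ± 0.29 for CCNB1, -0.51 ± 0.39 for MKI67 and -0.07 ± 0.20 for CCND1, with limma adjusted p-values of 0.384 to 0.996, beside 0.0306% of genes called lower. At 24 h they were -0.59 ± 0.24 for CCNA2, -0.35 for CCNB1, -0.36 for MKI67 and -0.13 for CCND1, with limma adjusted p-values of 0.241 to 0.876, beside 0.475% called lower. These rested on CCL set 1: without it the differences were -0.076 for CCNA2, 0.199 for CCNB1, 0.009 for MKI67 and 0.183 for CCND1.

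At 18 h the median difference over all 6529 genes was itself 0.415, against -0.259 at 48 h and -0.061 to 0.036 at the other times. The deposited values gave differences of -0.06 for CCNA2, -0.28 for CCNB1, 0.25 for MKI67 and 0.20 for CCND1 at 18 h, none of them called, beside 0.184% of genes called lower and 12.3% higher. After quantile normalization, which brought the median to 0.002, they were -0.41, -0.64, -0.11 and -0.16 for the same genes in that order, also not called. The sign of MKI67 and CCND1 at 18 h thus turned with the scaling. Quantile normalization also moved the split of all genes: 59 were then called higher and 26 lower at 6 h, against 18 and 2 as deposited. The counts were 224 and 114 at 18 h, against 803 and 12 as deposited. They were 296 and 154 at 24 h, against 166 and 31, and 338 and 472 at 48 h, against 87 and 341.

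The CCL effect was not shown to differ between the times for any of the 4 genes. The F-test across the 5 effects gave limma adjusted p-values of 0.458 for CCNA2, 0.537 for CCNB1, 0.45 for MKI67 and 0.723 for CCND1, and called 0.0153% of all genes. With 48 h left out, the mean over the other 4 times was -0.45 for CCNA2 (limma adjusted p = 0.00816) and -0.57 for CCNB1 (0.0106), both called beside 4.5% of genes called lower (294, or 846 after quantile normalization). MKI67 then lost its call on the deposited values, at -0.36 (limma adjusted p = 0.238), and CCND1 stood at -0.02 (0.923). After quantile normalization MKI67 was called, at -0.48 (limma adjusted p = 0.0492), just under the threshold. Without the 6 arrays that stood apart as well as 48 h, its difference was -0.40.

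Within each arm no change with time was called for these genes on the deposited values. Across the 6 untreated times the F-test gave limma adjusted p-values of 0.772 for CCNA2, 0.821 for CCNB1, 0.853 for MKI67 and 0.706 for CCND1, beside 0.23% of genes called. For CCNA2 and CCNB1 the largest difference from 0 h was that at 12 h, 0.54 ± 0.24 and 0.69 ± 0.33. Their limma adjusted p-values were 0.359 and 0.391. Untreated means of both genes lay above 0 h at all 5 times, by 0.18 to 0.54 for CCNA2 and 0.40 to 0.69 for CCNB1. The CCL means were 7.79 to 8.56 for CCNA2, against 8.44 at 0 h, and 6.07 to 7.15 for CCNB1, against 6.86. For MKI67 they were 7.28 to 8.89, against 9.08. The CCL arm was not tested against 0 h. Across the 5 CCL times the F-test gave limma adjusted p-values of 0.208 for CCNA2, 0.175 for CCNB1, 0.122 for MKI67 and 0.325 for CCND1. It called 2.44% of all genes. The largest difference from 6 h within the CCL arm was that of MKI67 at 48 h minus 6 h, -1.51 ± 0.44 (limma adjusted p = 0.0836), beside 0.842% of genes called lower. After quantile normalization it was called, at -1.30 (limma adjusted p = 0.0484). This difference again holds the array with 5.88.

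The comparison of the G1 cyclin with the late genes was made within arrays, where a shift in the scale of an array cancels. For each array the log2 level of a late gene was subtracted from that of CCND1, and the CCL minus untreated difference of this quantity was averaged over the 5 times. The level difference itself mixes 2 probe sets and carries no meaning. Only its shift between groups of arrays does. CCND1 was shifted by 0.44 against CCNA2, by 0.61 against CCNB1 and by 0.60 against MKI67. In an exact two-sided permutation test over the 400000 arrangements of arm labels within times, p was 0.000245 for CCNA2, 0.000228 for CCNB1 and 0.000347 for MKI67 (0.000347 for each after Benjamini-Hochberg adjustment over the 3 pairs). Thus, with CCL, all 3 late genes were lower relative to CCND1 than in time-matched untreated cells, more than the spread between arrays gives. How many of all genes would shift as much against CCND1 was not tested. At 0 h the mean of CCND1 minus CCNA2 was -0.14. Group means were -0.33 to 0.15 with CCL and -1.04 to -0.37 in untreated cells from 6 h on. For CCNB1 the 0 h mean was 1.45, against 0.96 to 1.87 with CCL and 0.41 to 1.05 without. For MKI67 it was -0.77, against -0.64 to 0.67 with CCL and -1.32 to -0.60 without. A shift from 0 h was not tested.

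By time, the shift of CCND1 against CCNA2 was 0.28 at 6 h, 0.70 at 12 h, 0.26 at 18 h, 0.46 at 24 h and 0.52 at 48 h. Against CCNB1 it was 0.70, 0.80, 0.48, 0.22 and 0.83 at the same times. Against MKI67 it was 0.44, 0.75, -0.04, 0.23 and 1.61. All were above 0 but that against MKI67 at 18 h. In single arrays at 12 h, CCND1 minus CCNA2 ran from -0.70 to -0.13 in CCL-treated cells, against -1.05 to -1.03 in untreated cells. For CCND1 minus MKI67 at 48 h, the CCL arrays were at -0.61 and 1.94, against -1.05 to -0.87 in untreated cells. With 48 h left out of the mean the shifts were 0.42 against CCNA2, 0.55 against CCNB1 and 0.34 against MKI67 (exact permutation over 40000 arrangements, adjusted p = 0.00371, 0.00371 and 0.0057). Without CCL set 1 of 48 h the mean shift against MKI67 was 0.342 (exact permutation, adjusted p = 0.00118). Without the 6 arrays that stood apart the shifts were 0.26 against CCNA2, 0.34 against CCNB1 and 0.34 against MKI67, with exact permutation p-values adjusted over the 3 pairs of 0.0365, 0.0446 and 0.00542 over 7200 arrangements.

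**Figure D3:**
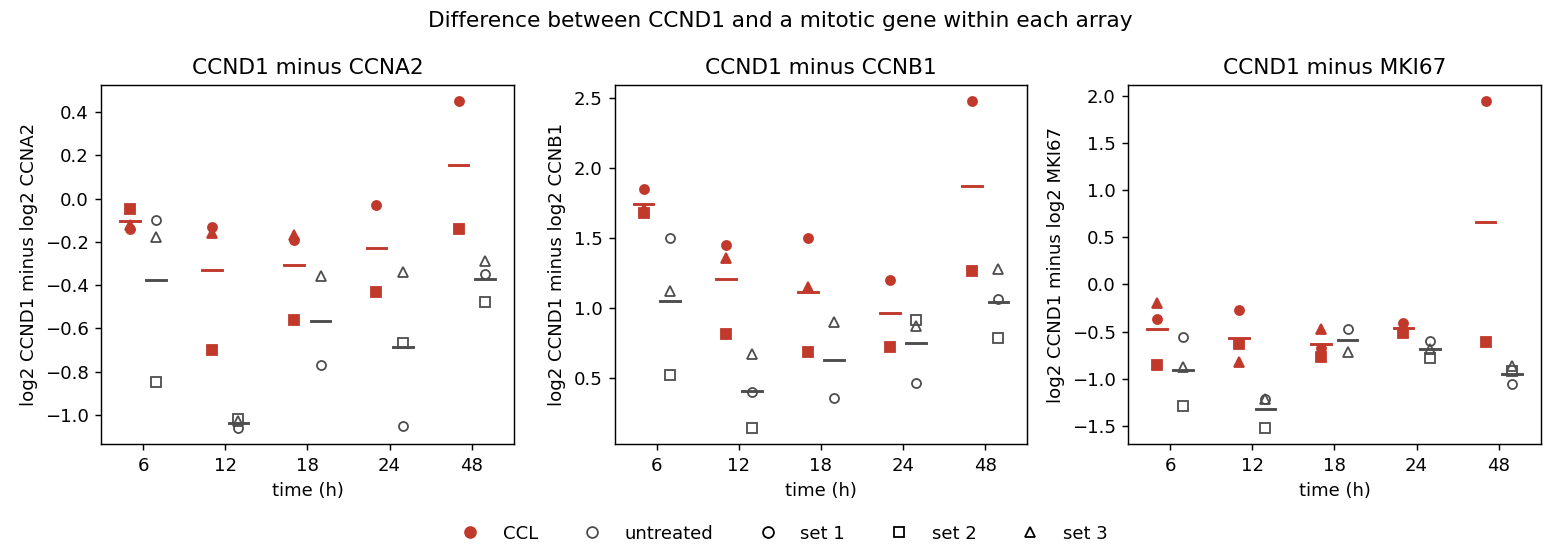
CCND1 minus CCNA2, CCNB1 or MKI67 on the log2 scale within each array by time in hours, CCL-treated in filled symbols left of untreated in open ones. At 12 h CCND1 minus CCNA2 ran from -0.70 to -0.13 in CCL-treated cells, above -1.05 to -1.03 in untreated cells; the height of a panel as such reflects the probe sets compared.

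Other genes of the pathways around the 4 members were taken from 8 lists, of which 105 genes were tested. From here on, fell and rose mean lower and higher with CCL than in time-matched untreated cells. Each count is of genes called in the mean of 5 times and is to be read against 13.6% higher and 11% lower among all genes, whose median difference was 0.01. With 48 h left out of the mean those shares were 13.5% higher and 4.5% lower. Among G1 cyclins, their kinases and partners other than CCND1, 5 of 13 fell and none rose (median -0.30). CCNE2, a cyclin of the G1 to S step, fell by 0.74 on the log2 scale (± 0.19 SE), and RBL1, a retinoblastoma relative, by 0.70. CDC25A, a phosphatase that activates CDK2, fell by 0.56 and the S phase activator E2F2 by 0.48. The partner kinase of cyclin D1, CDK4, was at 0.05 ± 0.11 and its substrate RB1 at -0.23 ± 0.16, neither called. With 48 h left out, 1 of the 13 fell, near the 4.5% of all genes.

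Of 17 S phase genes, 14 fell and none rose (median -0.50). The replication factors GINS1 and GINS2 fell by 1.07 and 1.01, the origin licensing gene CDC6 by 0.83 and the helicase subunit MCM6 by 0.82. MCM7 (-0.27 ± 0.13) and CDT1 (-0.11 ± 0.12) were not called. At 48 h alone 13 of the 17 were called lower, and with 48 h left out of the mean, 5 were.

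Of 20 mitotic entry genes, 11 fell and 3 rose (median -0.46). CCNB2, the sister of CCNB1, fell by 0.81, as did CDKN3, a phosphatase that dephosphorylates CDK2, and CCNF, a cyclin of a ubiquitin ligase, fell by 0.80. WEE1, a kinase that inhibits CDK1 and so opposes mitotic entry, rose by 0.81 ± 0.15 (limma adjusted p = 0.000204). The others that rose were CDC25B, by 0.31, and LIN37, by 0.29. CKS2 (-0.24 ± 0.10) and MYBL2 (-0.29 ± 0.19) were not called. With 48 h left out, 7 fell and 2 rose. CDKN3 was also the single tested gene of the CDK inhibitor list; CDKN1A is among those not analysed here.

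Of 19 genes of the anaphase-promoting complex, which degrades cyclins A2 and B1, and its checkpoint partners, 6 fell and 1 rose (median -0.12). Those that fell most were CDC23, a subunit of the complex (0.74), the checkpoint kinases BUB1 (0.74) and TTK (0.69), and the activator CDC20 (0.56). CDC27 (-0.04 ± 0.09) and BUB3 (-0.06 ± 0.09) were not called. The gene that rose was CDC16, another subunit of the complex, by 0.46 ± 0.13. With 48 h left out, 4 of the 19 fell and 1 rose (median -0.02). Of 12 perichromosomal and chromosome structure genes, the setting of Ki-67, 9 fell and none rose (median -0.54). The spindle gene NUSAP1 fell by 0.90, CDCA2, a phosphatase-targeting protein of chromatin, by 0.88, the passenger complex gene CDCA8 by 0.80 and the condensin gene SMC4 by 0.72. NIFK, which binds Ki-67, was at 0.06 ± 0.13 and NCL at -0.20 ± 0.11, neither called. With 48 h left out, 5 of the 12 fell.

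Of 17 transcription factors known to act on CCND1, 9 rose and none fell (median 0.34), also with 48 h left out. At 48 h alone none of the 17 was called and their median was -0.05, against 0.36 to 0.60 at the other times. The median over all genes was 0.415 at 18 h, where the list had 0.60, and -0.259 at 48 h. Of all 6529 genes, 87 were called higher at 48 h. Whether the list differs between times beyond this shift was not tested. The AP-1 genes FOSL1, JUNB and JUN rose by 1.67, 1.07 and 1.01, and EGR1, an early growth response factor, by 0.93. STAT3 (0.02 ± 0.09) and ATF2 (0.06 ± 0.11) were not called. None of 9 genes of cyclin D1 turnover and its partners passed the test, among them USP22 (-0.15 ± 0.10), a deubiquitinase, and GSK3B (-0.03 ± 0.10), a kinase that marks cyclin D1 for degradation. Without the 6 arrays that stood apart, 13.8% of all genes were called lower and 9.71% higher. The counts lower were then 5 of 13 G1 genes, 12 of 17 S phase genes, 11 of 20 mitotic entry genes, 5 of 19 genes of the anaphase-promoting complex and 8 of 12 chromosome structure genes, and 9 of the 17 factors rose. After quantile normalization, beside 18.9% lower and 16.5% higher, the counts lower in the same order were 5, 15, 12, 8 and 10, and 9 factors rose. Of the 9 turnover genes, 1 was called lower without the 6 arrays and 1 after quantile normalization.

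**Figure D4:**
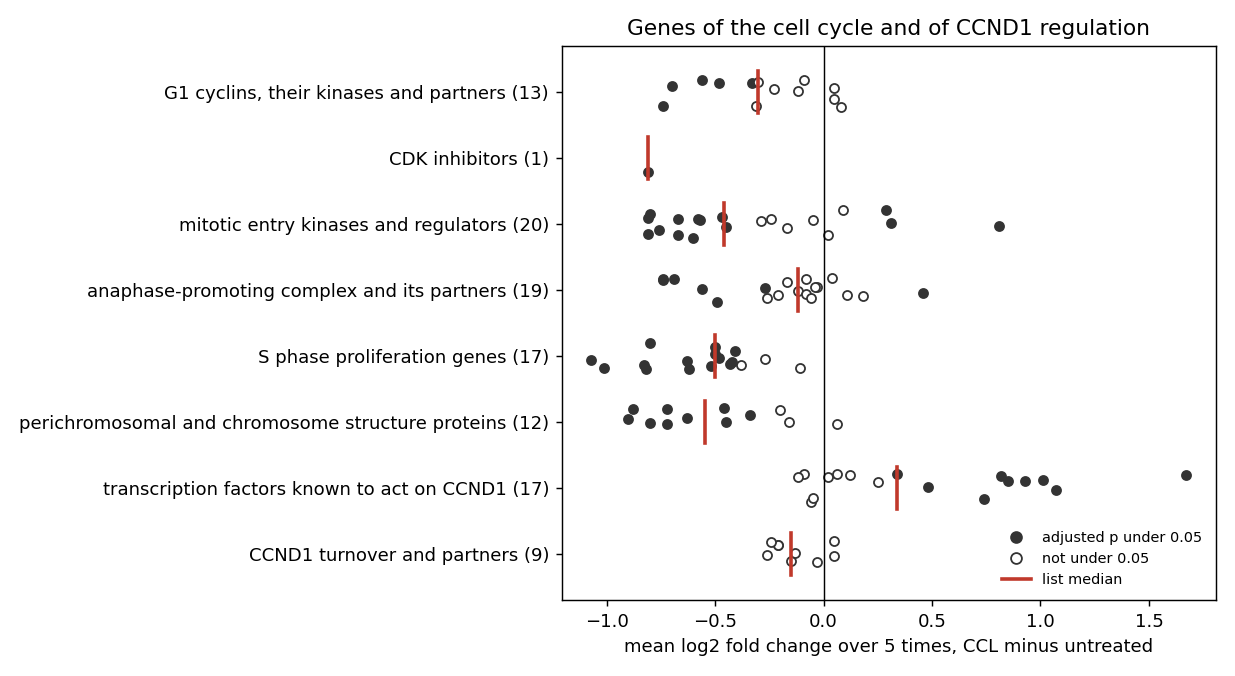
Log2 difference of CCL minus untreated cells, mean of 5 times, for each tested gene of the pathway lists (points, filled for an adjusted p under 0.05), with a line at each list's median. S phase genes have a median of -0.50 with 14 of 17 called lower, and transcription factors known to act on CCND1 a median of 0.34 with 9 of 17 called higher.

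The genes with profiles most like each member were ranked by Pearson correlation over the 29 arrays after quantile normalization, as a description, since the arrays share treatment, time and set. For CCNA2 they were NUSAP1 (r = 0.935), OIP5 (0.92), INIP, PBK and MRS2. For CCNB1 they were CDCA8 (0.928), PLK1 (0.925), CDCA2, KIF20A and GTSE1, and for MKI67 KIF20B (0.952), TOP2A (0.94), FOXM1, FRYL and ESCO2. CCND1 had no such close neighbour: its highest values were CHST9 (0.703), CFL2, CCDC125, KLHL9 and MRAS (0.663). CCNA2 and CCNB1 correlated with each other at 0.873. Of 6528 genes, CCNB1 ranked 9 for CCNA2, and CCNA2 ranked 7 for CCNB1. MKI67 correlated with CCNA2 at 0.658 and with CCNB1 at 0.669. CCND1 correlated with CCNA2 at 0.249, with CCNB1 at 0.052 and with MKI67 at 0.267. Without CCL set 1 of 48 h, 3 of the 5 nearest genes stayed for CCNA2 and CCNB1, 4 for CCND1 and 2 for MKI67, and the correlation of MKI67 with CCNB1 was 0.467.

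Of the 5 neighbours of each gene, those called lower with CCL numbered 5 for CCNA2 and 5 for CCNB1. They numbered 4 for MKI67 (not FRYL) and 3 for CCND1 (not KLHL9 and MRAS). None was called higher, and among all genes 11% were called lower and 13.6% higher. The neighbours were picked on the same arrays that hold the CCL difference, so these counts are no separate evidence. The mitotic kinesin gene KIF20A differed with CCL by -1.33 ± 0.20 in the mean of 5 times, OIP5 by -0.88 ± 0.17 and the mitotic kinase gene PLK1 by -0.60 ± 0.12. TOP2A, the topoisomerase of dividing cells, differed by -0.63 ± 0.15 and FOXM1, the activator named above, by -0.57 ± 0.16. Of the neighbours of CCND1, which was not itself called, CHST9, a sulfotransferase gene, fell by 1.39 ± 0.29 (limma adjusted p = 0.00106). CCDC125 fell by 0.41 (0.0349) and CFL2, a cofilin gene, by 0.38 (0.0326), while KLHL9 was at -0.27 ± 0.12 and MRAS at -0.02 ± 0.16.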

How the data were processed

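HepG2 RNA went onto Affymetrix arrays as biotinylated cRNA, per the labels' protocols. The deposited values are log2 levels. The submitters' processing notes name Affymetrix Expression Console 1.1 and the RMA method. Which arrays were normalized together is not stated. Array medians differ. Values were used as deposited. Depth and detection calls are not known. Gene names came from the probe table of the array (16098 of 53617 with 1 symbol, 37519 with none, none with several), all matched by gene ID to RefSeq GRCh38.p14. The probe set with the highest mean stood for the 779 genes that had more than 1.

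The 6529 genes that exceeded log2 5 on 2 or more arrays were fitted by limma 3.58.1 (lmFit, then eBayes, in R 4.3.3), with 1 mean for each of 11 groups. Contrasts were CCL minus untreated at each time, their mean, F-tests across times, untreated cells against 0 h and later CCL times against 6 h. P-values are two-sided with Benjamini-Hochberg adjustment over all genes tested, called under 0.05. Errors are standard errors of this model, which pools 1 spread per gene over all groups. Within-array differences were tested by exact permutation in Python 3.11.15. Alternatives were quantile normalization, set as a block, no filter, every probe set, the compared arrays alone and each array left out. Leaving out 6 arrays, 48 h (for the pair differences too), or 1 array from the likeness ranking was added after seeing the data. The scripts were tested on simulated data.

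The members, the lists and the tests were chosen with earlier results of these data known. From each list the text names up to 4 called genes with the largest change and up to 2 uncalled ones with the highest mean level. For the lists of mitotic entry and of the anaphase-promoting complex, genes that rose outside this rule are named too. For each member the 5 most correlated genes are named. Promoter sequences are from RefSeq (GRCh38.p14) and were matched by gene symbol for CCNA2, CCNB1 and MKI67.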

Additional observations from a re-analysis of the deposited data

How the results depend on the processing

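The mean of 5 times kept its direction and its side of the threshold for all 4 genes under quantile normalization and the replicate block. It did so too without the 6 arrays that stood apart. Its differences could not change under no filter or every probe set, as each gene had 1 probe set and passed the filter. Its calls stayed the same there. With 1 array left out it ran from -0.635 to -0.431 for CCNA2, -0.843 to -0.548 for CCNB1, -0.965 to -0.405 for MKI67 (the last without CCL 48 h set 1) and -0.151 to -0.026 for CCND1, with the same calls. The exception was MKI67 with 48 h left out, at -0.364 on the deposited values (limma adjusted p = 0.238). After quantile normalization it was -0.48 there and called (limma adjusted p = 0.0492). The shift of CCND1 kept its call with quantile normalization, without the 6 arrays, with 48 h left out and with 1 array left out, at 0.386 to 0.503 against CCNA2, 0.485 to 0.729 against CCNB1 and 0.342 to 0.851 against MKI67 with 1 array left out. With the replicate block, as paired differences over 12 pairs of set and time, it was 0.51, 0.69 and 0.62 against the same genes (exact permutation, adjusted p = 0.00146 each), with 11 of 12 pairs above 0 for each. Residuals of same-numbered arrays correlated above 0.1 in 9 of the 12 pairs (-0.0657 to 0.444) and best with their own number in 7, so pairing by set was not established. Genes called numbered 1606, against 2312 with quantile normalization, 2114 with the replicate block and 1193 to 2109 with 1 array left out. At 12 h calls absent from the fit of all arrays appeared for CCNA2 at -0.788 with quantile normalization (adjusted p = 0.0257), at -0.795 with the replicate block (0.0181), the 12 h arrays alone (0.0143) or without the 6 arrays (0.00112). With 1 array left out it ran from -0.936 to -0.670 and was called in 4 of 29 fits, those without a CCL array of 24 or 48 h. CCNB1 at 12 h was called at -0.891 with the replicate block (0.0253), the arrays alone (0.0162) and without the 6 arrays (0.00815), and MKI67 at -0.838 with the arrays alone (0.00727) and without the 6 arrays (0.0018). CCNA2 at 24 h, -1.098 to -0.076 with 1 array left out, was called without CCL set 2. At 48 h no filter ended the calls of CCNA2 at -0.879 (0.0561) and CCNB1 at -1.19 (0.0617), where more genes were tested. The 48 h arrays alone ended those of CCNA2 (-0.879), CCNB1 (-1.19) and MKI67 (-1.968), at 0.299 each. Without the 6 arrays they ended at -0.46 (0.395), -0.453 (0.697) and -0.568 (0.335) for CCNA2, CCNB1 and MKI67, where 1 CCL array was left and assumed to vary like the other groups. With 1 array left out the 48 h difference ran from -1.299 to -0.46 for CCNA2, -1.927 to -0.453 for CCNB1 and -3.369 to -0.568 for MKI67. No called value changed its sign. Some uncalled ones did, among them those at 18 h with quantile normalization (CCND1 -0.164, MKI67 -0.111) and at 24 h without CCL set 1 (CCNB1, CCND1 and MKI67). The cause of the changed calls was otherwise not tested. Groups of 2 or 3 arrays are too small for a test of single distant arrays, and signal over background is not known.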
